A study of Mus musculus with 12 samples.

Results

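The comparison described here sets KD1, a mouse R1 embryonic stem cell line with a knockdown of Set, against the scrambled control line, both as growing stem cells. Its arrays were taken by their labels and are 4 of the 12 arrays of the series, 2 of KD1 and 2 of scrambled control. All annotated genes entered it, 19938 in number, each represented by its brightest probe set with 1 gene symbol.

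R1 is a mouse embryonic stem cell line, here grown without feeder cells on gelatin. The ESC groups KD1, KD2 (a second Set knockdown line) and Scrambled (cells infected with a scrambled control) were kept in medium containing leukemia inhibitory factor at 1000 U/ml and 15% fetal bovine serum. The RA groups KD1, KD2 and Scrambled were the same lines treated for 4 days with retinoic acid at 1 µM, in 10% serum and without that factor. Each of the 6 groups had 2 arrays, called biological replicates by the labels. By the labels each group is 1 line, the treatment text speaks of clones, and nothing says that replicates of a line came from separate infections. The p-values below therefore measure the spread between samples of a line, and effects of the knockdown cannot be told apart from other differences between the lines.

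SET is a nuclear protein that inhibits the protein phosphatase PP2A, carries histones as a chaperone and masks histone tails from acetyltransferases. Embryonic stem cells hold it at high levels. Stem cells of this kind are kept near a naive state by leukemia inhibitory factor and depend on a core of transcription factors that includes Pou5f1 (Oct4), Sox2 and Nanog.

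All values are log2 units after RMA, a method that corrects background, normalizes arrays and gives 1 value per probe set, so a difference of 1 is a 2-fold change. Array medians lay between 7.17 and 7.24. The 2 KD1 arrays correlated at 0.9945 over the 19938 genes and the 2 scrambled ESC arrays at 0.9921. The array labelled ESC KD2 replicate 2 correlated better with RA arrays (mean r 0.9864) than with the other ESC arrays (0.9517), and the array labelled RA KD2 replicate 2 did the reverse (0.9862 with ESC, 0.9518 with RA). Only the first replicate of KD2 in ESC is used below, as the KD2 array, and the comparison of KD1 with scrambled does not rest on KD2.

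Set RNA was lower in KD1 by both bright probe sets, which the annotation assigns to both Set and BC085271. The first, probe set 10470893, read 12.13 and 11.94 in the KD1 arrays, 12.15 in the KD2 array, and 12.93 and 12.71 in the scrambled arrays. KD1 thus lay at 58.2% of scrambled (log2 -0.78, SE 0.09, adjusted p = 0.00513). Probe set 10587486 read 12.17 and 11.94 in KD1 and 12.92 and 12.68 in scrambled cells, or 59.5% (log2 -0.75, SE 0.10, adjusted p = 0.00793). The groups did not overlap by either probe set. Probe set 10470905, annotated to Set alone and much dimmer, read 8.12 and 7.90 in KD1, against 8.82 and 8.39 in scrambled cells (-0.59, adjusted p = 0.133). Probe set 10470907, dimmer still, gave -0.32 (adjusted p = 0.448). The probe set of BC085271 alone read 8.51 and 8.35 in KD1 and 9.86 and 9.38 in scrambled cells, a fall of 1.19 (SE 0.20, adjusted p = 0.0194). In RA, where neither array is shared with ESC, probe set 10470893 stood at 48.1% and probe set 10587486 at 51.8% of scrambled. The dim probe sets 10470905 and 10470907, which carry no BC085271 label, showed no such fall in RA. They stood at 106.9% and 117.9% of scrambled (log2 0.10 and 0.24, adjusted p = 0.814 and 0.514). Their KD1 and scrambled readings in RA were low, at 5.8 to 6.7. Both calls of the bright probe sets rest on the spread shared over 8 arrays: with the 4 ESC arrays alone the adjusted p-values were 0.0782 and 0.0854, and without ESC KD1 replicate 2 the second gave -0.63 (adjusted p = 0.0523).

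By limma, with the spread pooled over the 8 arrays of KD1 and scrambled cells in both states, 169 genes rose in KD1 (0.848% of those tested) and 218 fell (1.09%), at an adjusted p below 0.05. Together these 387 genes were 1.94% of all, and 3139 genes had an unadjusted p below 0.05. A change of at least 2-fold was reached by 55 of the genes that rose and 84 of those that fell, and the median size of a called change was 0.88. The KD1 arrays did not overlap with the scrambled arrays at any called gene, as was true of 45.2% of all genes. The median difference over all genes was 0.02. The size of this count depends on which arrays estimate the spread: 168 rose and 215 fell with 10 arrays, without the KD2 arrays that resemble the other state. With all 12 arrays, those included, 4 rose and 9 fell, among the same 387, and 2 rose and 14 fell with the 4 ESC arrays. The calls that rose and fell numbered 76 and 79 without ESC KD1 replicate 1, and 66 and 65 without ESC KD1 replicate 2. Leaving out ESC Scrambled replicate 1 gave 195 and 381. Among the RA arrays, leaving out Scrambled replicate 1 gave 120 and 144, KD1 replicate 1 gave 87 and 100, and KD1 replicate 2 gave 86 and 100.

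The 12 largest called rises in KD1 had differences of 1.49 to 2.16. Igsf21, an adhesion protein of the immunoglobulin superfamily, read 10.75 and 10.78 in KD1, 8.79 in the KD2 array, and 8.51 and 8.71 in scrambled cells. That is a rise of 2.16 (SE 0.14, adjusted p = 0.000614). KD1 also stood above KD2 by 1.97 in the direct comparison, which uses the same KD1 arrays and 1 KD2 array. Calml4, a calmodulin-like protein, read 11.72 and 11.14 in KD1, 10.77 in the KD2 array, and 9.75 and 9.04 in scrambled cells (2.04, SE 0.26, adjusted p = 0.007). Niban1, a stress-induced gene, read 10.19 and 10.34 in KD1, against 8.35 and 8.44 in scrambled cells (1.87, SE 0.16, adjusted p = 0.00148). In each of these 3 genes every KD1 array was more than 1 log2 unit above every scrambled array.

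Atp2a3, which encodes the calcium pump SERCA3, read 9.59 and 9.89 in KD1, 7.80 in the KD2 array, and 7.93 and 8.29 in scrambled cells (1.63, SE 0.16, adjusted p = 0.00258). The KD2 array lay below both scrambled arrays here, and KD1 exceeded KD2 by 1.94, again with the same KD1 arrays. Atp2a3 was also called with all 12 arrays (adjusted p = 0.047). Casp8, the initiator caspase of death receptors, rose by 1.54 (adjusted p = 0.0125), and Xaf1, an interferon-inducible antagonist of the caspase inhibitor XIAP, rose by 1.52 (adjusted p = 0.00192). Hal, the first enzyme of histidine breakdown, rose by 1.49, the keratin Krt17 by 1.55, and the homeobox gene Prrx2 by 1.50. Plet1, a membrane protein of placental tissue, rose by 1.70 and reached 11.93 and 12.24 in KD1, against 9.96 and 10.82 in scrambled cells. Apobec2, a relative of cytidine deaminases first known from muscle, rose by 1.60, yet stood at 9.84 in KD2 replicate 1, between the KD1 arrays at 10.16 and 9.31. Of the 12 rises, 6 (Igsf21, Calml4, Niban1, Atp2a3, Xaf1 and Hal) kept their call whichever of the 8 arrays was left out. Krt17 (adjusted p = 0.0595) and Casp8 (adjusted p = 0.0701) lost it without ESC KD1 replicate 2. Plet1 and Prrx2 lost it without any 1 of the 4 KD1 arrays (adjusted p up to 0.12 and 0.0868), and Apobec2 in 6 of the 8 fits (up to 0.0968).

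The largest falls held several Y-linked, X-linked and germline genes. Zfy1, a Y-linked zinc finger gene, read 5.33 and 5.31 in KD1, 5.55 in the KD2 array, and 8.50 and 9.32 in scrambled cells (-3.59, SE 0.28, adjusted p = 0.000928). Calb2, which encodes the calcium-binding protein calretinin, read 7.00 and 7.06 in KD1, 7.82 in the KD2 array, and 8.97 and 9.48 in scrambled cells (-2.20, SE 0.16, adjusted p = 0.000836). Dppa3 (Stella), which shields DNA methylation in the early embryo and marks a subset of naive cells, read 7.69 and 7.72 in KD1, 9.20 in the KD2 array, and 9.61 and 9.93 in scrambled cells. Its fall was 2.07 (SE 0.19, adjusted p = 0.00186). KD1 lay below KD2 by 1.50 in the direct comparison, which is partly built in because it uses the same KD1 arrays. Dnajc5g, a DnaJ protein of the testis, fell by 2.15, Scml2, a germline polycomb protein on the X chromosome, by 2.13. The X-linked EF-hand gene Efhc2 fell by 1.96 (adjusted p = 0.000836). Dnajc5g and Efhc2 were lower still in KD2 replicate 1 (6.02 and 6.45) than in the KD1 arrays.

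Ddr2, a receptor tyrosine kinase for collagen, read 7.57 and 7.35 in KD1, 7.87 in the KD2 array, and 9.22 and 9.49 in scrambled cells (-1.90, SE 0.17, adjusted p = 0.00186). The imprinted adaptor of insulin signalling Grb10 read 7.95 and 7.71 in KD1, 8.40 in the KD2 array, and 9.74 and 9.38 in scrambled cells (-1.73, SE 0.16, adjusted p = 0.0019). For both genes KD2 replicate 1 lay between the KD1 and the scrambled arrays. The mucin gene Muc3 fell by 1.73 (adjusted p = 0.000836) and the neural transcription factor gene Zic5 by 1.67 (adjusted p = 0.0125). Of the 12 falls, 11 kept their call whichever array was left out; Zic5 lost it without ESC KD1 replicate 1 (adjusted p = 0.0866). The plot of the 24 largest changes shows every array.

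**Figure D1:**
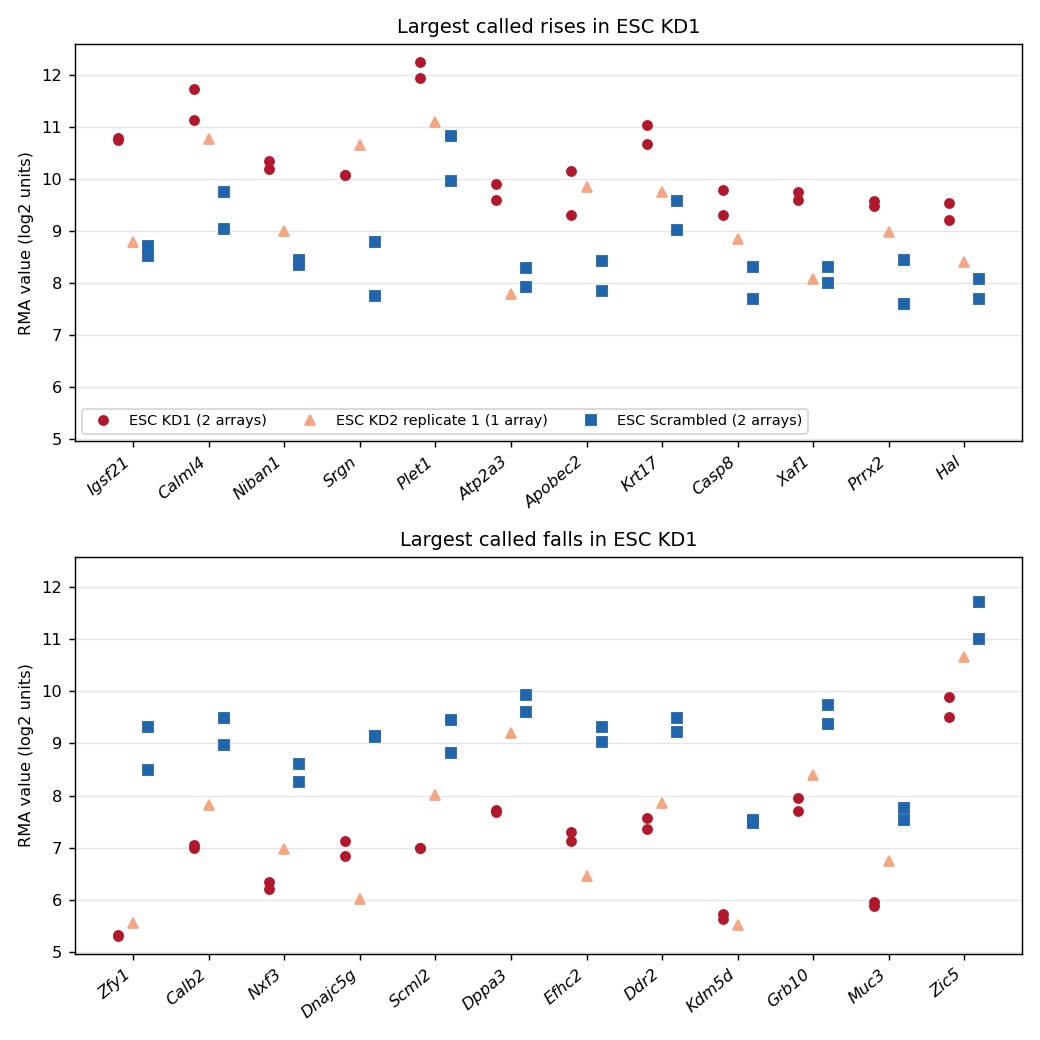
RMA values (log2 units) of the 12 largest called rises (top) and 12 largest called falls (bottom) in growing stem cells, 1 point per array: ESC KD1 (circles), ESC KD2 replicate 1 (triangles) and ESC Scrambled (squares). The genes were picked among those whose KD1 and scrambled arrays do not overlap, which held for 45.2% of all genes. They run from Igsf21 at 2.16 to Zfy1 at -3.59. KD2 lies near scrambled for Igsf21 and Atp2a3 and near KD1 for Zfy1 and Kdm5d.

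Stem cell identity genes showed no called change. At 1.94% of all genes called, none of 18 does not set them apart. By limma 0 of 18 such genes rose and 0 fell, and 1 had an unadjusted p below 0.05, with a median difference of 0.01 and differences from -0.32 to 0.19. Pou5f1 read 12.97 and 12.92 in KD1 and 12.86 and 12.65 in scrambled cells, Sox2 12.79 and 12.86 against 12.66 and 12.88, and Nanog 12.70 and 12.72 against 12.67 and 12.81. These 3 factors were thus among the bright genes of every array in both lines. The mean level of the 18 genes was 11.84 and 11.88 in KD1 and 11.86 and 11.89 in scrambled cells. The labelled cell type therefore matched its markers.

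Among 27 naive pluripotency genes, 2 rose (Gbx2 and Bmp4) and Dppa3 fell, with a median difference of 0.11. Over all genes 0.848% rose and 1.09% fell. Bmp4, a ligand that helps hold stem cells undifferentiated, read 12.10 and 12.26 in KD1, 11.51 in the KD2 array, and 11.29 and 10.84 in scrambled cells (1.11, SE 0.15, adjusted p = 0.00949). Gbx2, a homeobox gene downstream of STAT3, rose by 1.28 (adjusted p = 0.0446) and lost its call in 7 of the 8 fits with 1 array left out (adjusted p up to 0.222). Bmp4 lost it without ESC KD1 replicate 2 (adjusted p = 0.0614). Among 21 genes of leukemia inhibitory factor and STAT3 signalling, 2 rose, Gbx2 and the receptor subunit Cntfr (1.25, adjusted p = 0.0415, lost in 6 of the 8 fits), and 0 fell. The median of that list was 0.19.

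Formative and primed pluripotency genes, which mark the exit from the naive state, had 4 falls and 0 rises of 21, beside 1.09% and 0.848% of all genes, with a median of -0.11. Without ESC KD1 replicate 1 there were 2 falls and 1 rise, and without ESC Scrambled replicate 1 there was 1 rise as well. Lef1, a transcription factor of Wnt signalling, read 7.68 and 7.65 in KD1, 8.89 in the KD2 array, and 8.86 and 8.90 in scrambled cells. Its fall was 1.21 (SE 0.11, adjusted p = 0.00192) and held whichever array was left out. KD1 minus KD2 was -1.22, which is partly built in because it uses the same KD1 arrays. The KD2 array thus sat among the scrambled values. Zic2 fell by 1.62 (adjusted p = 0.0141) and Zic5 by 1.67. Both are neighbours on chromosome 14, within a stretch of lowered genes described below. The de novo DNA methyltransferase gene Dnmt3a fell by 0.82 (adjusted p = 0.0407), a call lost in 6 of the 8 fits. Zic2, like Zic5, was not called without ESC KD1 replicate 1 (adjusted p = 0.0683). Otx2 (-0.86, adjusted p = 0.37) and Fgf5 (-0.43, adjusted p = 0.17) did not pass, and Etv4 (0.87, adjusted p = 0.23) and Lefty1 (0.76, adjusted p = 0.15) lay above 0.

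Of 32 extraembryonic endoderm genes 6 rose and 0 fell, which is 18.8% of the list beside 0.848% of all genes. These genes mark the yolk sac lineages that line the embryo, and 27 of the 32 lay above 0, with a median difference of 0.17. Lama1, a laminin chain of the basement membrane, read 10.35 and 10.35 in KD1, 9.73 in the KD2 array, and 9.31 and 9.43 in scrambled cells (0.98, SE 0.11, adjusted p = 0.00427). The transcription factor Sox7 read 8.46 and 8.30 in KD1, 7.59 in the KD2 array, and 7.40 and 7.09 in scrambled cells (1.13, SE 0.15, adjusted p = 0.00718). For both genes KD1 stood above the KD2 array, by 0.62 and 0.78, differences that did not pass. The KD2 array stood above the scrambled arrays. Over the whole list the order was the other way. KD2 replicate 1 minus scrambled had a median of 0.36, against 0.17 for KD1.

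The lineage factor Gata6 read 8.11 and 8.12 in KD1, 9.13 in the KD2 array, and 7.20 and 7.36 in scrambled cells (0.84, adjusted p = 0.00757), and the laminin chain Lamc1 rose by 0.54 (adjusted p = 0.00639). Cubn, the uptake receptor cubilin, stayed dim: 7.12 and 6.98 in KD1, 8.48 in the KD2 array, and 6.14 and 5.93 in scrambled cells (1.02, SE 0.13, adjusted p = 0.00747). Here KD1 lay below KD2, with KD1 minus KD2 at -1.43 (adjusted p = 0.006). Srgn, the granule proteoglycan serglycin, rose by 1.80 (SE 0.37, adjusted p = 0.0469) with scrambled arrays more than 1 unit apart at 7.75 and 8.78. It lost its call in 5 of the 8 fits, and Sox7 and Cubn did so without ESC KD1 replicate 1 (adjusted p = 0.0513 and 0.0574), which left 3 rises. The defining markers Gata4 (0.06), Sox17 (0.22) and Foxa2 (0.09) were not called. The mean level of the list was 8.45 and 8.50 in KD1, against 8.17 and 8.22 in scrambled cells. In bulk RNA a larger number of endoderm-like cells and more endoderm RNA per cell cannot be told apart, and the share of such cells was not tested.

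Of 21 trophoblast genes 2 rose, Bmp4 and Tead4 (0.69, adjusted p = 0.0233, lost in 5 of the 8 fits), and 0 fell (median 0.05). Over all genes 0.848% rose and 1.09% fell. At those shares none called, as in the mesoderm and fibroblast lists below, does not set a list of 21 apart. Neural genes gave 1 rise (Gbx2) and 2 falls of 25, Calb2 and the proneural factor Neurod1 (-1.35, adjusted p = 0.0146), with a median of 0.01. Neurod1 was not called without either ESC KD1 array (adjusted p up to 0.0991). Of 21 mesoderm genes none passed (1 at an unadjusted p below 0.05; median 0.08), the most changed being Meox1 (0.68, adjusted p = 0.106). Of 21 fibroblast and feeder genes none passed either (4 at an unadjusted p below 0.05; median 0.11), with Acta2 at -1.29 (adjusted p = 0.0714). Acta2, smooth muscle actin, read 9.50 and 8.48 in KD1, 11.90 in the KD2 array, and 10.56 and 10.01 in scrambled cells, so the KD2 array was the high one (KD1 minus KD2 -2.90, adjusted p = 0.0071). The mean fibroblast level was 8.11 and 8.16 in KD1 and 8.08 and 8.21 in scrambled cells.

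Of 31 germline genes that DNA methylation silences in other cells, 6 fell and 0 rose, or 19.4% of the list beside 1.09% of all genes. The list's median was -0.19. Asz1, a germ cell protein of the piRNA pathway, read 5.33 and 5.49 in KD1, 5.49 in the KD2 array, and 6.89 and 7.32 in scrambled cells (-1.69, SE 0.15, adjusted p = 0.00171). The cancer-testis gene Ct55 read 6.53 and 6.50 in KD1, 6.39 in the KD2 array, and 8.09 and 8.22 in scrambled cells (-1.64, SE 0.11, adjusted p = 0.000614). In both genes the KD1 and KD2 arrays lay together more than 1 unit under the scrambled arrays, and all KD values were below the median of all probe sets. Nxf3, a testis member of the RNA export factors, fell by 2.17 (adjusted p = 0.00529). Rhox1, a homeobox gene of the X-linked Rhox cluster, fell by 1.27 (adjusted p = 0.00742) and stood at 8.08 in KD2 replicate 1, below the KD1 arrays at 8.26 and 8.37. Tex14, needed for the bridges between germ cells, fell by 1.05 (adjusted p = 0.0125), and Magea5, dim in all arrays, by 0.85 (adjusted p = 0.00718). Asz1, Ct55 and Nxf3 were the list's calls with all 12 arrays; 4 genes were called without ESC KD1 replicate 1. Nxf3, Ct55, Rhox1 and Magea5 lie on the X chromosome. Dazl (-0.58, adjusted p = 0.55), Ddx4 (0.19) and Mael (-0.13) did not pass.

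The promoters of Asz1 (chr6:18109012-18109311, minus strand) and Ct55 (chrX:53724581-53724880, plus strand) are printed because both calls held whichever array was left out. They run from 250 bases before to 50 bases after the start, from RefSeq on GRCm38.p6. Capitals mark CACGTG, a palindrome bound by E-box factors, searched on both strands; TCACGTGA, which contains it, and TGACGTCA were searched as well.
Asz1: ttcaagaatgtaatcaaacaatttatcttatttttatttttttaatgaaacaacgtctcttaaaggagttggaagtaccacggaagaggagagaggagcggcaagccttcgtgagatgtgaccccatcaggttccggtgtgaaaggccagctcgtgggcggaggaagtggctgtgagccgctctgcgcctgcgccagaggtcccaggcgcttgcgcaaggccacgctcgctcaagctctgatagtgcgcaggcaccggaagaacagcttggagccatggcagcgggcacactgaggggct
Ct55: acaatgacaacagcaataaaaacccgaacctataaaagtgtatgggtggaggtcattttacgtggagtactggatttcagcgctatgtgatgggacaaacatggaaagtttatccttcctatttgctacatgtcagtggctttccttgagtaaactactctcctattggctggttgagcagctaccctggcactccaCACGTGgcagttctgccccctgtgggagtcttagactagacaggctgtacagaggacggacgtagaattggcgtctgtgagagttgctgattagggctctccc
The Asz1 window held 17 CG pairs and 0 copies of CACGTG, and the Ct55 window 7 CG pairs and 1 copy. The motif stood in 7.15% of the 32851 RefSeq promoter windows and in 13 of the 26 germline genes that had one. TCACGTGA stood in 0.974% of all windows and in 1 germline gene, and TGACGTCA in 1.79% and in 0. Of the 6 genes that fell, 5 matched a window, and CACGTG stood in Ct55 and not in Asz1, Tex14, Rhox1 or Magea5.

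Y-linked genes split. Of 8 measured, 3 fell and 0 rose, beside 1.09% and 0.848% of all genes. Kdm5d, a histone H3K4 demethylase, read 5.64 and 5.74 in KD1, 5.51 in the KD2 array, and 7.53 and 7.48 in scrambled cells (-1.81, SE 0.11, adjusted p = 0.000614). Uba1y, a ubiquitin-activating enzyme gene, read 8.59 and 9.03 in KD1, 9.18 in the KD2 array, and 10.02 and 10.42 in scrambled cells (-1.41, adjusted p = 0.0157, and 0.0997 without ESC KD1 replicate 1). With Zfy1 these are adjacent in the RefSeq gene order. The translation factor gene Eif2s3y did not follow, with 10.56 and 10.73 in KD1 and 10.78 and 10.62 in scrambled cells (-0.06, adjusted p = 0.83). Uty (-0.14), Zfy2 (-0.52), Usp9y (0.08) and Sry (0.13) were not called either, and Zfy2 and Usp9y stayed under 5 units in all 4 arrays. None of the 8 X-linked copies passed, among them Zfx (-0.15) and Kdm5c (-0.03), with a median of -0.03 and 0 at an unadjusted p below 0.05. At 1.94% of all genes called, none of 8 does not set them apart. Zfy1 and Zfy2 are close copies of each other, and whether they share probe signal was not tested.

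Cell adhesion and epithelial junction genes had 2 falls and 0 rises of 22, beside 1.09% and 0.848% of all genes, and a median of -0.28. An unadjusted p below 0.05 was reached by 12 of them, beside 3139 of all 19938 genes. Without ESC Scrambled replicate 1, 5 of the list fell. Cdh3 (P-cadherin) read 9.26 and 9.37 in KD1, 10.46 in the KD2 array, and 10.37 and 10.76 in scrambled cells (-1.25, SE 0.16, adjusted p = 0.00627). Esrp1, an epithelial splicing regulator, read 9.43 and 9.22 in KD1, 11.04 in the KD2 array, and 10.56 and 10.52 in scrambled cells (-1.22, SE 0.15, adjusted p = 0.00572). Both calls held whichever array was left out. KD1 was below KD2 as well, with differences of -1.15 for Cdh3 and -1.71 for Esrp1. These are partly built in, because they use 1 KD2 array and the KD1 arrays by which the genes were picked. Cdh1 (E-cadherin) stood at -0.31 (adjusted p = 0.14).

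Of 24 Wnt targets and antagonists 2 rose and 3 fell (median 0.06). Beside this list and those that follow here, 0.848% of all genes rose and 1.09% fell. The secreted Wnt antagonist Sfrp1 read 10.96 and 11.48 in KD1, 9.86 in the KD2 array, and 9.99 and 9.71 in scrambled cells (1.37, SE 0.20, adjusted p = 0.0125), a call lost without ESC KD1 replicate 2 (adjusted p = 0.0614). Bmp4 was the other rise. The falls were Lef1, Tnfrsf19 (-0.80, adjusted p = 0.0392, lost in 7 of the 8 fits) and the feedback inhibitor Axin2 (-0.67, adjusted p = 0.0469); 1 fall was called in 7 of the 8 fits with 1 array left out, all but that without ESC Scrambled replicate 1. Of 25 genes of FGF signalling and feedback 1 rose, Spry2, an inhibitor of receptor tyrosine kinase signalling (median of the list 0.11). Of 23 interferon response genes 2 rose, Xaf1 and Oas2 (1.14, SE 0.11, adjusted p = 0.00281), while the list's median was -0.06. Of 23 retinoic acid response genes none passed (3 at an unadjusted p below 0.05; median 0.14), the most changed being Crabp1 (-0.57, adjusted p = 0.35).

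Of 25 imprinted genes 2 rose and 1 fell (median -0.07). Beside this list and those that follow here, 0.848% of all genes rose and 1.09% fell. Meg3 (0.71, adjusted p = 0.0262) and Rian (0.87, adjusted p = 0.0452), noncoding RNAs of the Dlk1 domain, rose and Grb10 fell. Meg3 read 11.02 and 11.16 in KD1, 10.86 in the KD2 array, and 10.34 and 10.41 in scrambled cells. The 2 rises were lost in 6 and 7 of the 8 fits with 1 array left out, and 3 genes of the list fell without ESC Scrambled replicate 1 and 2 without ESC Scrambled replicate 2. Of 39 partners of SET and histone chaperones 1 fell, the PP2A subunit gene Ppp2r2c (-1.18, adjusted p = 0.0302, lost in 7 of the 8 fits), and 0 rose (median -0.04). The catalytic subunit genes Ppp2ca (-0.07) and Ppp2cb (-0.08) and the SET relatives Anp32a (0.19) and Nap1l1 (0.00) were not called. Of 17 DNA methylation enzymes 1 fell, Dnmt3a (median -0.02), and of 22 polycomb subunits 1 rose, Rnf2 (RING1B; 0.44, adjusted p = 0.0125), a call lost without either ESC KD1 array. The polycomb median was 0.00. The 8 measured two-cell-stage genes all lay below 0, with a median of -1.05. Arg2 (-1.12, adjusted p = 0.0498) was the call among them, lost in 7 of the 8 fits. An unadjusted p below 0.05 was reached by 7 of the 8 genes, beside 3139 of all 19938 genes. Without ESC Scrambled replicate 1, 5 of the 8 fell. Their mean level was 7.10 and 7.42 in KD1 but ranged from 7.84 to 8.63 between the scrambled arrays.

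Growth and stress lists held few calls. At 1.94% of all genes called, none in lists of 22 to 30 genes does not set them apart. None of 30 S phase genes (median -0.04), 29 G2 and M phase genes (-0.01), 29 ribosome biogenesis and Myc target genes (0.00), 28 p53 targets (-0.12), 27 hypoxia and glycolysis genes (-0.06) or 22 ATF4 stress genes (-0.06) passed. In that order 3, 3, 2, 4, 3 and 1 of them had an unadjusted p below 0.05, as did 3139 of all 19938 genes. Their most changed genes were Ccne2 (-0.46, adjusted p = 0.141), Kif23 (0.27, adjusted p = 0.167), Myc (0.80, adjusted p = 0.133), Plk3 (0.41, adjusted p = 0.285), Egln3 (0.64, adjusted p = 0.528) and Asns (-0.31, adjusted p = 0.45). Of 17 cholesterol synthesis genes 1 rose, Pmvk (0.73, adjusted p = 0.0226, lost in 7 of the 8 fits; median 0.07). Over all genes the median was 0.02.

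The called genes were not spread evenly over the chromosomes. Chromosome 14 held 39 rises and 15 falls of 698 genes, or 5.59% and 2.15%, against 0.848% and 1.09% of all genes. On chromosome 5, 7 rose and 35 fell of 1139, on chromosome 8, 2 rose and 27 fell of 955, and on the X chromosome 0 rose and 35 fell of 739. Chromosome 1 leaned the other way, with 23 rises and 8 falls of 1122. Among genes whose mean was at or above the median of all values (7.22), the median difference was -0.20 on chromosome 8, where 21.4% of genes lay above 0, and 0.16 on chromosome 1, where 79.6% did. Over all such genes it was -0.03, with 44.3% above 0. In RA, on other arrays of the same lines, the medians were -0.25 for chromosome 8 and 0.22 for chromosome 1. KD2 replicate 1, set against the same scrambled ESC arrays, gave -0.10 and -0.03. The X chromosome stood at -0.13 in ESC and -0.06 in RA. These values are descriptions without a test, and copy number was not measured here.

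**Figure D2:**
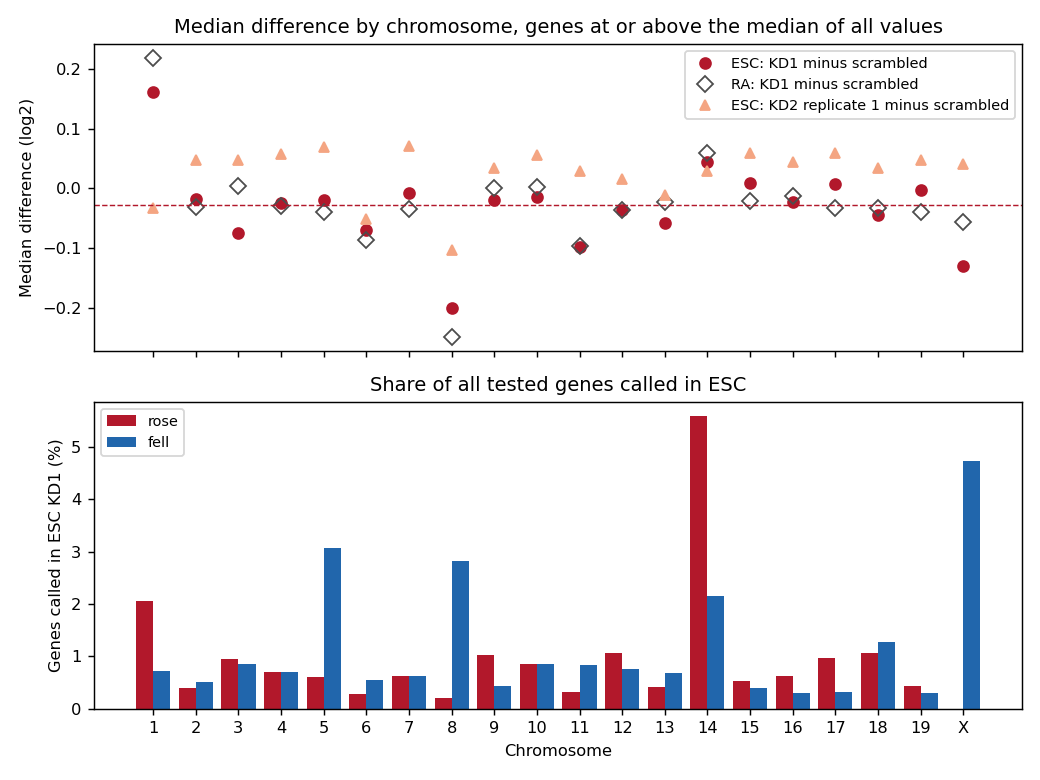
Top: median difference (log2) per chromosome over genes at or above the median of all values, for KD1 minus scrambled in ESC (circles) and RA (diamonds) and for KD2 replicate 1 minus scrambled in ESC (triangles); the dashed line is the ESC median over all chromosomes, -0.03. Bottom: share of tested genes (%) that rose or fell in ESC KD1, which reaches 5.59% for rises on chromosome 14 and 4.74% for falls on the X chromosome.

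Within chromosomes 14 and 5 the calls lay in blocks of neighbouring genes, in RefSeq order. The ends of these blocks were set after the values were seen, so their counts are descriptions. From Sucla2 to Spry2 on chromosome 14, 34 of 78 genes rose and 0 fell, beside 0.848% and 1.09% of all genes. All 52 genes there at or above 7.22 were higher in KD1, by 0.11 to 1.44, with a median of 0.82. The unbroken runs of called neighbours were Tpt1, Snora31 and Gtf2f2; Gpalpp1, Nufip1 and Tsc22d1; Naa16, Mtrf1, Kbtbd7, Kbtbd6, Wbp4, Elf1 and Sugt1; Mzt1, Bora, Dis3 and Pibf1; and Obi1, Rbm26 and Ndfip2.

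Mzt1, a small protein of the gamma-tubulin complex, read 12.19 and 12.34 in KD1, 11.23 in the KD2 array, and 11.36 and 11.39 in scrambled cells (0.89, SE 0.08, adjusted p = 0.00186). Bora, an activator of Aurora A kinase, read 11.37 and 11.37 in KD1, 10.27 in the KD2 array, and 10.34 and 10.29 in scrambled cells (1.05, SE 0.11, adjusted p = 0.00348). Dis3, a nuclease of the RNA exosome, read 12.49 and 12.47 in KD1, 11.59 in the KD2 array, and 11.66 and 11.34 in scrambled cells (0.98, SE 0.11, adjusted p = 0.00413). In these genes KD1 stood apart and KD2 lay among or below the scrambled arrays. Spry2, the last gene of the block, rose by 1.44 (adjusted p = 0.0137, and 0.0832 without ESC KD1 replicate 2), the ETS factor Elf1 by 1.02, the general transcription factor subunit Gtf2f2 by 0.87 and Tpt1, an abundant growth-related protein, by 0.24 (adjusted p = 0.0243). The naive factor Klf5 also lies there, at 0.70 (adjusted p = 0.098). In RA 45 of the 78 genes rose and 0 fell, beside 5.39% of all genes, and the median of the 52 bright genes was 1.18. KD2 replicate 1 minus scrambled in ESC had a median of -0.05 over these 52 genes. The number called in ESC was lower without ESC KD1 replicate 2 (17) and without RA KD1 replicate 1 (23) or 2 (22), and was 3 with all 12 arrays.

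Just beyond, from Mir17 to Tmtc4, 13 of 39 genes fell and 0 rose, beside 1.09% and 0.848% of all genes. The 26 genes at or above 7.22 had a median of -0.64, and 24 of them lay below 0. Zic5, Zic2, Pcca, a mitochondrial propionyl-CoA carboxylase subunit (-1.05, adjusted p = 0.0125), and Ggact (-0.95, adjusted p = 0.0193) formed 1 run. Zic2 read 8.83 and 9.54 in KD1, 10.07 in the KD2 array, and 10.60 and 11.01 in scrambled cells. The KD1 arrays lay apart from each other in Zic2, yet both were below KD2 and scrambled. Over the 26 bright genes the median was -0.58 in RA and -0.08 for KD2 replicate 1 minus scrambled in ESC. This block rested most on single arrays: of the 11 bright genes called, 0 were called without ESC KD1 replicate 1, 4 without ESC KD1 replicate 2, and 5 without any 1 RA array or the second scrambled ESC array. With all 12 arrays 0 were called.

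The block opens with the miR-17-92 cluster, a set of microRNAs cut from 1 primary transcript that restrain cell cycle inhibitors and pro-apoptotic genes such as Bim; its genes were named after their values were seen. Mir18 read 7.16 and 7.45 in KD1, 8.71 in the KD2 array, and 8.83 and 8.78 in scrambled cells, a fall of 1.50 (SE 0.21, adjusted p = 0.0101). Mir20a fell by 0.76 (adjusted p = 0.0275) and Mir19b-1 by 1.05 (adjusted p = 0.0448), both dim at 5.05 to 5.53 in KD1 and 5.79 to 6.55 in scrambled cells. Mir17 (-0.71, adjusted p = 0.0864), Mir19a (-1.20, adjusted p = 0.0608) and the host transcript Mir17hg (-0.62, adjusted p = 0.109) did not pass. KD2 replicate 1 lay close to 1 of the scrambled arrays for each of the 6 genes. Whether these probe sets read the primary transcript, the hairpin or the mature form was not tested. The mature sequences are shown because the called and uncalled genes share seeds; they come from RefSeq on GRCm38.p6, lie on the plus strand of chromosome 14 between 115043684 and 115044380, and have the seed (bases 2 to 8) in capitals.
mmu-miR-17-5p: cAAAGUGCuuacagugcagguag
mmu-miR-20a-5p: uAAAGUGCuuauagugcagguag
mmu-miR-18a-5p: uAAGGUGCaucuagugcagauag
mmu-miR-19a-3p: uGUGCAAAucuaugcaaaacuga
mmu-miR-19b-3p: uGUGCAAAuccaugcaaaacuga
The first pair share the seed AAAGUGC and the last pair GUGCAAA, while miR-18a-5p has AAGGUGC.

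On chromosome 5, from Rab28 to Arap2, 19 of 49 genes fell and 0 rose, beside 1.09% and 0.848% of all genes. The 28 bright genes had a median of -0.83. The run of called neighbours was Sepsecs, Pi4k2b, Zcchc4 and Anapc4. Pi4k2b, a phosphatidylinositol 4-kinase, read 7.00 and 7.40 in KD1, 7.98 in the KD2 array, and 8.52 and 8.92 in scrambled cells (-1.52, SE 0.17, adjusted p = 0.00491). Zcchc4, a methyltransferase of ribosomal RNA, read 9.17 and 9.28 in KD1, 8.99 in the KD2 array, and 10.20 and 10.33 in scrambled cells (-1.04, SE 0.12, adjusted p = 0.0056). Sepsecs, which makes selenocysteine on its tRNA, fell by 1.14 (adjusted p = 0.00605) and Anapc4, a subunit of the anaphase-promoting complex, by 0.98 (adjusted p = 0.00949, and 0.0604 without ESC KD1 replicate 2). The KD2 array sat below the scrambled arrays at each of these 4 genes.

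KD2 replicate 1 minus scrambled had a median of -0.66 over the 28 bright genes of the chromosome 5 block. In the direct comparison 0 of its 49 genes differed between KD1 and KD2, beside 2.19% of all genes, which is too low a share for that 0 to set the block apart. In RA the KD1 median there was -0.72, and 25 of the 49 genes fell and 1 rose, beside 6.69% and 5.39% of all genes. The Notch effector Rbpj (-0.56) and the condensin subunit Ncapg (-0.66) were among the ESC falls. The count of 18 bright genes called became 10 without ESC KD1 replicate 1, 7 without ESC KD1 replicate 2, and 1 with all 12 arrays. The 3 blocks together held 66 of the 387 called genes (17.1%), which left 135 rises and 186 falls elsewhere. Spry2, Zic2 and Zic5, the calls of the FGF list and part of those of the formative list, lie in these blocks.

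**Figure D3:**
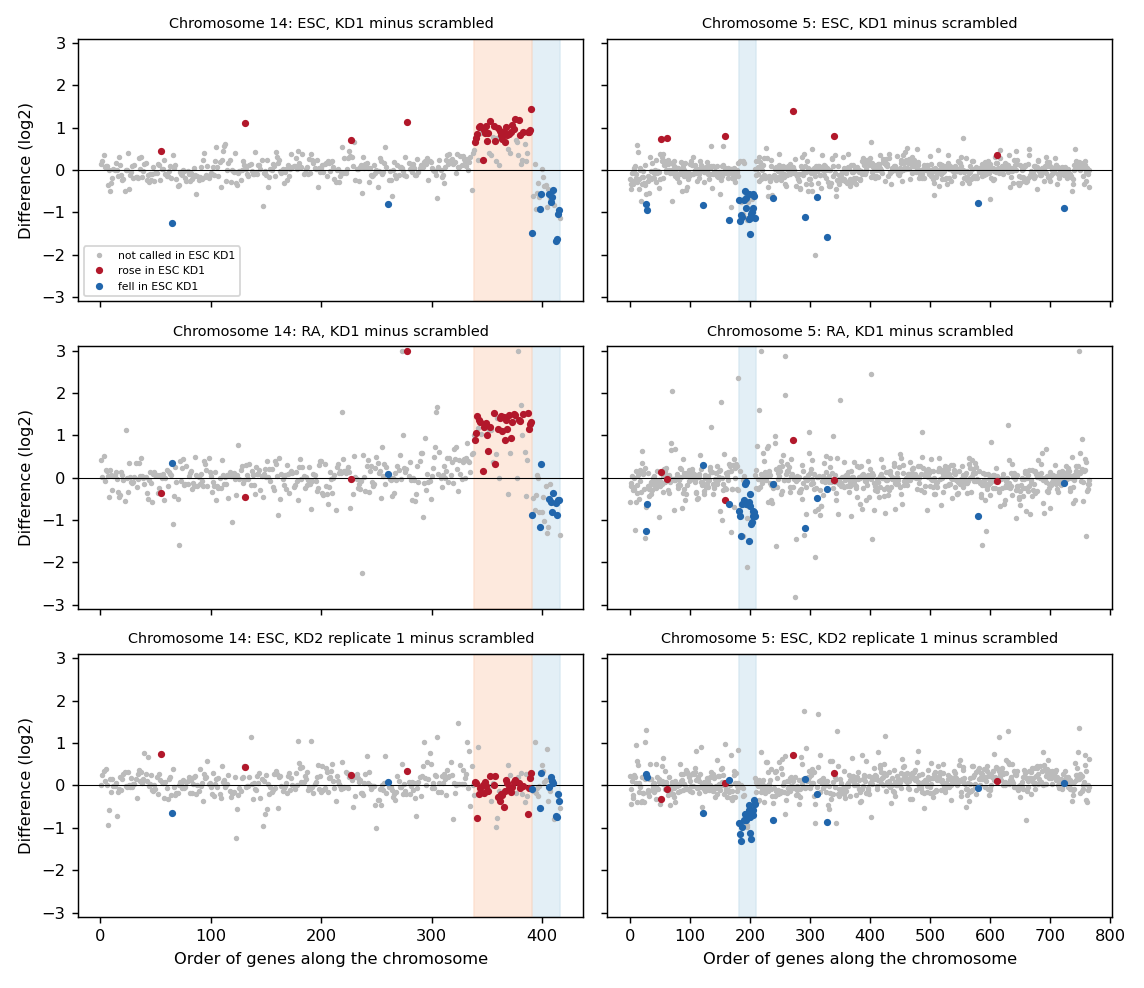
Difference (log2) of each gene at or above the median of all values, in gene order along chromosomes 14 (left) and 5 (right), for KD1 minus scrambled in ESC (top) and RA (middle) and KD2 replicate 1 minus scrambled in ESC (bottom); differences beyond 3 are drawn at 3. Shading marks the raised block (median 0.82 in ESC KD1) and lowered block (-0.64) on chromosome 14 and the lowered block on chromosome 5 (-0.83); KD2 stands at -0.66 in the chromosome 5 block and at -0.05 and -0.08 in the chromosome 14 blocks.

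The same lines after retinoic acid were measured on other arrays. There 1075 genes rose (5.39%) and 1333 fell (6.69%), 12.1% of all (1430 and 958 with arrays centred on their medians). Of the 387 genes called in ESC, 166 (42.9%) were called in the same direction in RA, which is 6.89% of the RA calls; 76 rose and 90 fell in both, and 16 were called in opposite directions. The 2 states share lines but no arrays. The counts of calls in RA fell to 421 and 305 without RA KD1 replicate 2, to 508 and 636 without RA KD1 replicate 1, and to 586 and 596 or 636 and 737 without RA Scrambled replicate 1 or 2. Niban1 rose by 1.82 in RA, close to its rise in ESC, and Kdm5d had a difference of -1.96. In both, the difference between states did not pass (0.05 and 0.15).

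Some genes differed between the states by a test of the difference itself, ESC minus RA, which was called for 961 genes (4.82%; 456 higher, or 2.29%, and 505 lower in ESC, or 2.53%, against 367 and 636 with arrays centred on their medians). Of the 387 ESC genes 132 were among them, a count raised by their choice, since the same ESC arrays enter both tests. Igsf21 rose in ESC alone by its values, at 2.16 in ESC and 0.13 in RA (difference 2.03, adjusted p = 0.00101). Calml4 (2.04 in ESC, -0.71 in RA), Tnfsf9, a ligand of the tumour necrosis factor family (1.45 and -1.29), Sfrp1 (1.37 and -0.91) and the matrix protein gene Tgfbi (1.35 and -0.84) had opposite signs in ESC and RA, with differences of 2.19 to 2.74. The fall of Calml4 in RA was not called (adjusted p = 0.13), while those of Tnfsf9, Sfrp1 and Tgfbi were. The ESC call of Tnfsf9 was lost in 3 of the 8 fits (adjusted p up to 0.103) and that of Tgfbi without ESC KD1 replicate 2 (adjusted p = 0.0623). Sst (somatostatin) was at 0.23 in ESC and -2.23 in RA. In the other direction, Slc6a15, an amino acid transporter, was at -0.98 in ESC (adjusted p = 0.118) and 3.21 in RA (difference -4.20, adjusted p = 0.000731). Car8 (-1.34 and 2.26), Flt1 (0.20 and 3.11), Serpinb6c (0.50 and 3.34) and Tbc1d4 (0.36 and 3.16) followed.

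Cubn, Lama1 and Sox7 rose in both states but further in RA: Cubn by 1.02 in ESC and 4.26 in RA, Lama1 by 0.98 and 3.71, and Sox7 by 1.13 and 3.41, with differences of -3.24, -2.72 and -2.28 (adjusted p = 0.000107, 0.000105 and 0.000739). In RA 26 of the 32 endoderm genes rose and 0 fell, beside 5.39% and 6.69% of all genes, with a median of 1.98. Grb10 had differences of -1.73 in ESC and -3.88 in RA (ESC minus RA 2.15, adjusted p = 0.00137). Muc3 (-1.73 and -0.01), Calb2 (-2.20 and 0.01) and Esrp1 (-1.22 and 0.45) lay near or above 0 in RA, with differences that passed. The counts of differences moved with single arrays too, to 111 higher and 192 lower without RA KD1 replicate 2, to 190 and 238 without RA KD1 replicate 1, to 207 and 274 without RA Scrambled replicate 1, and to 227 and 316 or 252 and 353 without ESC KD1 replicate 1 or 2.

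**Figure D4:**
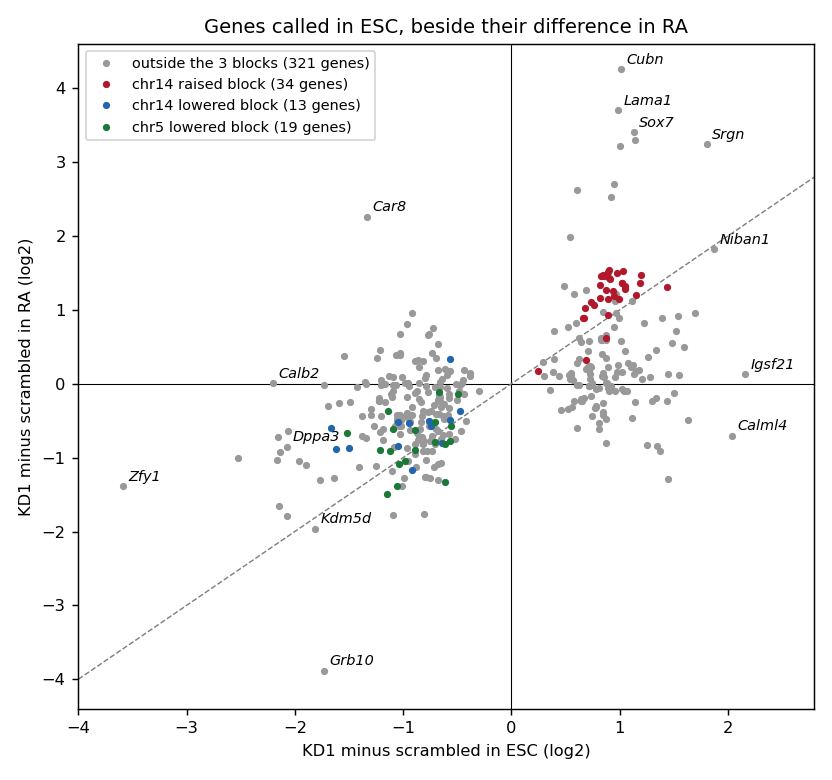
KD1 minus scrambled (log2) in ESC (horizontal) and RA (vertical) for the 387 genes called in ESC, coloured by block; the dashed line marks equal differences. The 34 genes of the chromosome 14 raised block lie above 0 in both states, Cubn, Lama1 and Sox7 far above the line, and Igsf21 near 0 in RA, at 0.13.

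KD1 and KD2 were compared directly in ESC, with KD2 as a single array whose spread is taken to be that of the other groups. The ESC KD1 arrays are those by which the genes and blocks above were picked. Differences from KD2 at those genes are therefore partly built in. KD1 was higher at 105 genes (0.527%) and lower at 332 (1.67%). These counts were 60 and 221 without ESC KD1 replicate 1 and 26 and 98 without ESC KD1 replicate 2. Besides Igsf21, Atp2a3 and the chromosome 14 genes, Xaf1 was higher in KD1 than in KD2 by 1.59 (adjusted p = 0.0059), Tgfbi by 1.74 (adjusted p = 0.011), Niban1 by 1.27 (adjusted p = 0.015) and Oas2 by 0.91 (adjusted p = 0.015). Dppa3, Lef1, Esrp1 and Cdh3 were lower, as was Neurod1 by 1.43 (adjusted p = 0.027). The differences between KD1 and KD2 at Kdm5d (0.18), Ct55 (0.12), Asz1 (-0.08), Zfy1 (-0.23) and probe set BC085271 (-0.07) did not pass, which does not show that the lines are alike there. Against the shared scrambled arrays KD2 replicate 1 lay lower at each of these 5 genes.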

How the data were processed

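Total RNA of 12 R1 cell samples (300 ng each) was read as biotin-labelled cRNA on 1-colour Affymetrix gene arrays. The authors deposited log2 values after RMA, per the submitters' processing notes; its version and the genome build are not given in the sources used here, and scanner files were not used here, so the background correction could not be varied. Of 35556 probe sets, the platform annotation gave 21789 a single symbol, 1621 several, and did not list 12146. The brightest probe set with 1 symbol stood for each of 19938 genes, 19856 of which matched RefSeq.

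Groups came from the labels. A limma 3.58.1 model (R 4.3.3; lmFit, then eBayes with an intensity trend) was fitted to the 8 KD1 and scrambled arrays, with Benjamini-Hochberg adjustment over all genes and calls at an adjusted p below 0.05. All adjusted p-values are limma's. KD1 and KD2 were compared in 10 arrays, without the second replicate of each KD2 group. The code was tested on simulated data. Tables and plots used Python 3.11.15, pandas 2.3.3 and matplotlib 3.10.9. On arrays, the number of samples limits the precision; the median SE of a difference was 0.12.

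The lines compared, the 29 gene lists and the 8-array model were chosen with earlier results of these data known. Genes were named by rule: Set; the 12 largest called changes each way with arrays that do not overlap and a level of at least 7.22, leaving out predicted genes and small RNAs; up to 4 called genes per list, or the most changed one; the 5 largest differences between states each way; runs of 3 or more called neighbours; and the Y-linked genes with their X copies. Other genes named were chosen after their values were seen. Alternatives were other sets of arrays, no trend, robust eBayes, quantile normalization, median centring, bright genes alone, the mean of probe sets, a replicate block, and each array left out.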

Additional observations from a re-analysis of the deposited data

Results flagged for a closer look

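Among the 108 named genes, 10 were picked by the test of the difference between states and others by their ESC change. The share of named genes that passes it is therefore raised by the choice. The difference of KD1 minus scrambled, ESC minus RA, passed limma's test at an adjusted p below 0.05 for 30 of the 108, beside 4.82% of all genes. Each value here is that difference on the log2 scale for these 30 genes. In 17 of them the KD1 difference was lower in ESC than in RA: Slc6a15 (-4.20), Car8 (-3.60), Cubn (-3.24), Flt1 (-2.91), Serpinb6c (-2.85), Tbc1d4 (-2.80), Lama1 (-2.72), Sox7 (-2.28), Calb2 (-2.21), Zfy1 (-2.20), Muc3 (-1.72), Esrp1 (-1.67), Dnajc5g (-1.43), Asz1 (-1.39), Neurod1 (-1.35), Dppa3 (-1.22) and Efhc2 (-0.92). In 13 it was higher in ESC: Calml4 (2.74), Tnfsf9 (2.74), Sst (2.45), Sfrp1 (2.28), Tgfbi (2.19), Grb10 (2.15), Atp2a3 (2.13), Cntfr (2.08), Igsf21 (2.03), Prrx2 (1.63), Bmp4 (1.57), Krt17 (1.43) and Oas2 (1.00). Groups of 2 arrays are too small for a test of single outlying arrays.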

How the results depend on the processing

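With 10 arrays, without the KD2 arrays that resemble the other state, 168 genes rose and 215 fell in ESC, 1074 and 1333 in RA, and 455 and 506 differed between states, and 79 of 80 named calls were kept. With all 12 arrays, whose spread includes those 2, 4 genes rose and 9 fell in ESC, 315 and 148 in RA, 11 and 41 differed between states (higher and lower in ESC), and 15 and 11 between KD1 and KD2; probe set 10470893 of Set stood at -0.78 (adjusted p = 0.0985) and 10587486 at -0.75 (0.226). With the 4 ESC arrays, 2 rose and 14 fell, and the Set values were -0.78 (0.0782) and -0.75 (0.0854). Among bright genes alone 229 differences between states were higher in ESC. With a replicate block, 795 rose and 1305 fell in ESC, 2022 and 2775 in RA, 1441 and 1433 differed between states and 391 and 1194 between KD1 and KD2, and Set probe set 10470905 was called (-0.59, adjusted p = 0.0156). Deviations of same-numbered arrays correlated at 0.633 in ESC and 0.150 in RA, but the labels give the numbers no shared day or batch.

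With 1 array left out, 66 to 195 genes rose and 65 to 381 fell in ESC, 421 to 1284 and 305 to 1682 in RA, 111 to 486 and 192 to 670 differed between states, and 26 to 60 and 98 to 221 between KD1 and KD2. Set values ran from -0.89 to -0.67 (10470893), -0.87 to -0.63 (10587486), -0.81 to -0.38 (10470905) and -0.54 to -0.09 (10470907). Of 80 named called genes, 36 kept the call in all 8 such fits, 7 with 12 arrays, 12 with 4, 74 without the trend, and 78 or more with robust eBayes, quantile normalization, centring, probe set means or the block.

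Signs turned at uncalled genes: Ddx3x (0.0012) and Kdm5c (0.015) after quantile normalization, Ddx3x (0.0020) after centring, and, with 1 array left out, Ddx3x (-0.127 to 0.106), Eif2s3x (-0.185 to 0.0199), Eif2s3y (-0.136 to 0.0256), Kdm6a (-0.330 to 0.114), Usp9x (-0.0693 to 0.0215), Uty (-0.425 to 0.150), Fut9 (-0.727 to 0.0800), Usp9y (-0.0034 to 0.160), Kdm5c (-0.0594 to 0.0049), Rbmx (-0.0095 to 1.11) and Egln3 (-0.047 to 1.32). The causes were not tested. Slide and scan were not given in the sources used here.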
